A study of Mus musculus with 18 samples.

Results

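A set of 10 imprinted genes, most of which act on growth of the embryo, was followed in mouse embryos that carried mutations in Nkx2-5 (Csx), which encodes a homeodomain protein needed for heart development. Of the 10 genes, 6 are expressed mainly from the paternal allele (Igf2, Dlk1, Mest, Peg3, Nnat and Snrpn) and 4 mainly from the maternal allele (Cdkn1c, Igf2r, Grb10 and H19). They were found as every probe set, a group of oligonucleotide probes read as 1 value, that the platform annotation gave exactly 1 of these symbols. That rule found all 10 genes, of 6137 genes named on the arrays, with 14 probe sets of 13057, 7 on each of 2 array types, called type a and type b after the letter in the sample titles. Of the 14 probe sets 7 belong to paternally and 7 to maternally expressed genes. All 14 exceeded the detection floor on each of the 9 arrays of their type, so no member was lost to a filter on low signal.

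Total RNA came from the middle portion of embryos cut in 3, at embryonic day 9.5. The genotypes were homozygous mutant (null in the titles), heterozygous, and wild type, each with 3 arrays of each type, 18 arrays in all. Homozygous mutants carry the numbers 2 and 6 on both types and a further array that is number 8 of type a and number 9 of type b, called 8a and 9b here. Heterozygous arrays are numbered 3, 4 and 8 and wild type arrays 1, 5 and 7. The labels give neither the mutant allele, the strain, the sex, the litter nor the somite stage, and do not say whether an array held 1 embryo or a pool. What spread enters the p-values, between embryos or only technical, is therefore not known. No probe set carried the symbol of Nkx2-5, so the mutated gene was not analysed here as a check of the labels.

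Imprinted genes are transcribed mainly from 1 parental allele, and DNA methylation laid down in the germ line of 1 parent tells the alleles apart. Paternally expressed imprinted genes tend to promote growth of the fetus, and maternally expressed ones tend to restrain it. Igf2 is a growth factor, Igf2r is the receptor that carries it to the lysosome for degradation, Grb10 is an adaptor that dampens signalling from the insulin and IGF receptors, and Cdkn1c (p57Kip2) is an inhibitor of cyclin-dependent kinases. The arrays do not tell the parental alleles apart, so every value is the sum over both.

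On the RefSeq annotation of build GRCm38.p6, 5 of the 10 genes lie on chromosome 7. H19, a long noncoding RNA, spans chr7:142575530-142578146, and Igf2 spans chr7:142650768-142666816, 72.6 kb away. Cdkn1c, at chr7:143458339-143461059, lies 791.5 kb beyond Igf2. Peg3 spans chr7:6703892-6730462 and Snrpn spans chr7:59982495-60450177, which also holds Snurf. Nnat, at chr2:157560078-157562525, lies inside the span of Blcap. Igf2r, at chr17:12682406-12769706, is overlapped by the noncoding RNA Airn. Mest lies at chr6:30733506-30748466, Dlk1 at chr12:109452485-109463336 and Grb10 at chr11:11930499-12037428. The orientation of transcripts that overlap was not separated by the values used here.

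Mest, H19 and Igf2 each hold a microRNA hairpin, and the mature sequences are shown because these loci carry regulatory RNAs that the arrays do not measure. The sequences are RefSeq's, 5′ to 3′, with the seed (bases 2 to 8) in capitals.
mmu-miR-335-5p (Mest): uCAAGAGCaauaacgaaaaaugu
mmu-miR-335-3p (Mest): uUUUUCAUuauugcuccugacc
mmu-miR-675-5p (H19): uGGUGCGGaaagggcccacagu
mmu-miR-675-3p (H19): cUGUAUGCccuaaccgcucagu
mmu-miR-483-5p (Igf2): aAGACGGGagaagagaagggag
mmu-miR-483-3p (Igf2): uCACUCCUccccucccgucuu
No seed was shared between any of the 6 mature microRNAs. The miR-335 arms lie at chr6:30741314-30741336 (5p) and chr6:30741354-30741375 (3p) on the plus strand. The miR-675 arms lie at chr7:142577112-142577133 (5p) and chr7:142577078-142577099 (3p), and the miR-483 arms at chr7:142654968-142654989 (5p) and chr7:142654932-142654952 (3p), all on the minus strand.

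Nnat was the paternally expressed gene that changed, and the 250 bases before its start are shown for that reason. They lie at chr2:157559828-157560077 on the plus strand of GRCm38.p6 (RefSeq), 5′ to 3′, with each CG dinucleotide in capitals.
Nnat upstream: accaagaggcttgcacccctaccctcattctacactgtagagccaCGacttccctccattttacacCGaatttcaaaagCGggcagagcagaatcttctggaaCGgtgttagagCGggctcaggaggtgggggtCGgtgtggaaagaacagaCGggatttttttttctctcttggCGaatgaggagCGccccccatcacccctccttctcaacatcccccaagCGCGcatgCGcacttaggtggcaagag
This stretch holds 12 CG dinucleotides and is 54.8% G or C. Over all 32851 promoters in the RefSeq table the median count of CG was 6 and the median G and C content 52.4%, and 33.5% of promoters held at least as many CG as Nnat. The letters TNAAGTG, a consensus for the site that Nkx2-5 binds, were searched on both strands. They were found in 0 of the 17 upstream windows of the 8 member genes in that table (Dlk1, Grb10, Igf2, Igf2r, Mest, Nnat, Peg3 and Snrpn). They occurred in 10.1% of all windows of that length. The Mest windows that start at chr6:30737800 and chr6:30737803 overlap. Shorter forms of the site were not searched. Cdkn1c and H19 were not searched. A match or its absence describes only these letters in these windows.

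The deposited value is intensity, a probe set's brightness after background subtraction on a linear scale. The floor was 375.1 on type a and 523.1 on type b, 2 times the noise estimated from negative values. Fold changes are on the log2 scale and come from limma with an intensity trend, fitted for each array type on all its tested probe sets. The p-values are two-sided and adjusted by the Benjamini-Hochberg method over the 6935 tested probe sets of both types, and an adjusted p under 0.05 counts as called. The share of probe sets above the floor ran from 54.5% to 57.8% on type a arrays and from 38.6% to 44.0% on type b arrays. The arrays 8a and 9b stood apart in the ratio of the 3′ over the 5′ actin control, a measure of how complete the labelled RNA was, at 2.50 and 2.28. The remaining type a arrays had ratios of 0.967 to 1.41, and the remaining type b arrays 0.849 to 1.40. Afp, a gene of yolk sac and liver, was several times brighter on homozygous mutant 2, heterozygous 4 and wild type 1 than on the others of their genotype, with 1775, 1257 and 1406 on type a. Heart muscle markers were bright in every group, with summed intensities on type b of 55866 to 118864 in homozygous mutants, 69508 to 82026 in heterozygotes and 71425 to 106671 in wild type.

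Homozygous mutants were compared with wild type to ask which genes differ when both copies of Nkx2-5 are mutant. Of the 14 member probe sets 0 rose, 2 fell and 12 were not called. The background was 0.692% of the 6935 tested probe sets called, 0.505% higher and 0.187% lower. The probe sets that fell were those of Nnat and, on type a, Cdkn1c, so 1 of the 7 paternal and 1 of the 7 maternal probe sets was called. The paternal probe sets had a median log2 fold change of 0.24 (5 above 0 and 2 below) and the maternal ones 0.14 (4 above and 3 below), against -0.02 over all tested probe sets. Peg3, Cdkn1c, Grb10 and H19 have more than 1 probe set each. At the brightest probe set of each gene, the paternal median was 0.14 (4 above 0 and 2 below). The maternal median was then -0.025 (2 above and 2 below), against -0.035 over all genes. At an unadjusted p under 0.05, 2 member probe sets were higher and 3 lower, where 11.2% of all tested probe sets passed, 5.72% higher and 5.48% lower. The groups did not overlap at 4 member probe sets, 1 higher and 3 lower, where 15.4% of all tested probe sets were of that kind, 7.24% higher and 8.19% lower.

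**Figure D1:**
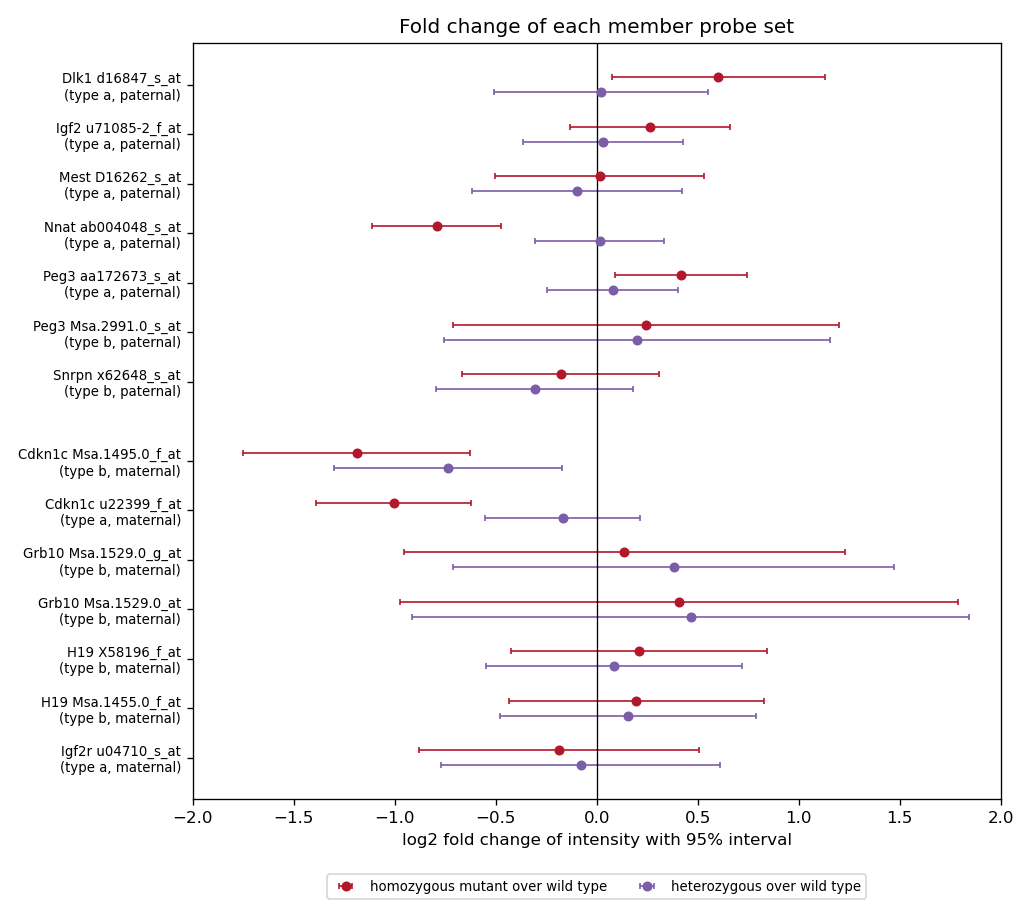
Log2 fold change of intensity of each member probe set with its 95% interval from limma, homozygous mutant over wild type in red and heterozygous over wild type in purple. The red intervals of Nnat and of both Cdkn1c probe sets lie below 0, and those of Dlk1 and the type a Peg3 probe set lie above 0, while the purple interval leaves 0 only at the type b Cdkn1c probe set.

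Among the paternally expressed genes, Nnat, a small membrane proteolipid of neural and endocrine cells, was the called one. Its intensity was 5832, 6427 and 5862 in homozygous mutants 2, 6 and 8a, against 10309, 10967 and 10416 in heterozygotes 3, 4 and 8, and 11615, 11429 and 8584 in wild type 1, 5 and 7. Every homozygous mutant array lay below every other array, the heterozygous arrays stood close together, and wild type 7 was the lowest of its group. The mean was 6041 ± 335 in homozygous mutants, 10564 ± 353 in heterozygotes and 10542 ± 1699 in wild type (SD, n = 3 each). Nnat fell by 0.79 ± 0.15 (SE) on the log2 scale in homozygous mutants relative to wild type, 1.73-fold (limma, adjusted p = 0.0313). The spread of Nnat within genotypes, an SD of 0.151 on the log2 scale, was small, at the 10.1th percentile of the tested type a probe sets.

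The Nnat call was close to the threshold. It ended in 10 of 21 alternative settings, with adjusted p between 0.0574 and 0.157 in limma, while the fold change stayed between -0.93 and -0.71 in all 21. The replicates whose removal, with the arrays of both types together, ended it were heterozygous 3 and 4, homozygous mutants 2 and 6, arrays 8a and 9b as 1 replicate, and wild type 1 and 5, with adjusted p from 0.0574 (8a and 9b) to 0.157 (wild type 5). The settings with no filter on low signal, with only the arrays of both genotypes compared, and with no intensity trend ended it too, with adjusted p of 0.0908, 0.135 and 0.0919.

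Markers of neural cells lay lower in homozygous mutants beside Nnat. Of 15 neural markers listed, 12 were on the arrays and 8 were tested. Msi1, Neurog1, Pax6 and Sox1 were above the floor on fewer than 3 arrays. All 8 had a fold change below 0 in homozygous mutants relative to wild type, with a median of -0.68 against -0.04 over all genes. Of these markers 0 were called, against 0.716% of all genes. The share of all genes below 0 was not counted. The summed intensity of the 6 on type a ran from 10220.4 to 23102 in homozygous mutants, from 21462 to 25663 in heterozygotes and from 18521 to 27545 in wild type. The sum was 23102, 17071 and 10220.4 in homozygous mutants 2, 6 and 8a, so the array with the actin ratio of 2.50 was the lowest. That of the other 2, on type b, ran from 852 to 1827 in homozygous mutants, with 9b (actin ratio 2.28) the lowest, from 2543 to 3477 in heterozygotes and from 2223 to 5576 in wild type. Sox11 was the brightest of the 6 on type a, with means of 8106 in homozygous mutants and 9067 in wild type, so it weighed most in that sum. The median log2 deviation of the 6 from the wild type mean does not weigh genes by brightness. It was -0.35, -0.73 and -1.15 in homozygous mutants 2, 6 and 8a and 0.01, 0.03 and 0.30 in heterozygotes 3, 4 and 8. In wild type 1, 5 and 7 it was 0.23, 0.07 and -0.27. The part of RNA quality in these sums and deviations was not tested. At the brightest probe set of each gene, the lowest fold changes belonged to Tubb3, a neuronal tubulin, at -1.95 (adjusted p = 0.0609), Fabp7, a fatty acid binding protein of radial glia, at -1.33 (adjusted p = 0.11), and Hes5, a Notch target of neural progenitors, at -1.07 (adjusted p = 0.082), all from limma. Nes, an intermediate filament of neural progenitors, had -1.02 there and -2.07 at its second probe set (limma, adjusted p = 0.542 and 0.165). Sox2, Sox11, Zic1 and Pax3 had -0.34, -0.29, -0.28 and -0.175 at their brightest probe sets (limma, adjusted p from 0.664 to 0.884). Hes5 fell relative to heterozygotes, by 1.26 (limma, adjusted p = 0.0335). It was the 1 marker of the 8 called there, where 1.1% of all genes were called. In heterozygotes relative to wild type 6 of the 8 markers lay above 0. Among the other marker lists, mesenchyme had a median of 0.23 in homozygous mutants relative to wild type, with 7 genes above 0 and 3 below. In the same comparison the medians were 0.09 for heart muscle, -0.02 for erythroid and -0.07 for liver bud and visceral endoderm markers. The 1 tested marker of trophoblast and decidua had -0.23, and 0 genes of these lists were called. Fewer cells of a type and less RNA per cell cannot be told apart in such tissue, and the part of neural cells in the Nnat and Cdkn1c values was not tested.

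Igf2, the growth factor, was not called. It stood at 35958, 40890.1 and 46736 in homozygous mutants 2, 6 and 8a, against 36639, 37467 and 30900 in heterozygotes 3, 4 and 8, and 34540, 39361 and 29274 in wild type 1, 5 and 7. The groups overlapped, and the brightest array was 8a, with the actin ratio of 2.50, whose part in this value was not tested. The log2 fold change of homozygous mutant over wild type was 0.26 ± 0.18 (SE; limma, adjusted p = 0.653), with a 95% interval of -0.13 to 0.66, and quantile normalization gave it the opposite sign, -0.08.

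Dlk1, a transmembrane protein related to the Notch ligands and also known as Pref-1, was brighter on average in homozygous mutants. It had 10296, 11658 and 7394 in homozygous mutants 2, 6 and 8a, against 4929, 7515 and 7175 in heterozygotes 3, 4 and 8, and 8704, 5338 and 5472 in wild type 1, 5 and 7. Homozygous mutants 2 and 6 exceeded all other arrays, while 8a lay under wild type 1 and under heterozygous 4. Relative to wild type the log2 fold change was 0.60 ± 0.24 (SE; limma, unadjusted p = 0.029, adjusted p = 0.365), which did not pass the test.

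Peg3, a zinc finger protein, had a probe set on each type. On type a it stood at 16620, 17516.5 and 15066.5 in homozygous mutants 2, 6 and 8a, against 13985, 13326 and 11635 in heterozygotes 3, 4 and 8, and 10544, 13671 and 12754 in wild type 1, 5 and 7. Every homozygous mutant array was above every other array on that type. Set against wild type the change was 0.42 ± 0.15 on the log2 scale (SE; limma, unadjusted p = 0.0162, adjusted p = 0.305), and it was not called.

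The type b Peg3 probe set varied more. It had 15650.3, 14062.5 and 4451 in homozygous mutants 2, 6 and 9b, against 9013, 9605 and 10313 in heterozygotes 3, 4 and 8, and 11550.4, 9935 and 5142 in wild type 1, 5 and 7. Homozygous mutants 2 and 6 were the brightest arrays and 9b the dimmest, with wild type 7 next to it. The log2 fold change over wild type was 0.24 ± 0.43 (SE; limma, adjusted p = 0.899) with all arrays and 0.82 without homozygous mutant 9b. Its spread within genotypes, 0.685 on the log2 scale, was at the 94.5th percentile of the tested type b probe sets, while that of the type a probe set, 0.151, was at the 10.1th percentile of type a.

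Mest, a protein related to hydrolases, showed no separation by genotype. It had 27331, 21683 and 20796 in homozygous mutants 2, 6 and 8a, against 25465, 24685 and 15550.4 in heterozygotes 3, 4 and 8, and 25200.4, 27790 and 17102 in wild type 1, 5 and 7. Each genotype held values above and below those of the others. The log2 fold change over wild type was 0.01 ± 0.24 (SE; limma, adjusted p = 0.991), with a 95% interval of -0.51 to 0.53, and its sign turned in 4 of the alternative settings.

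Snrpn, which encodes the splicing protein SmN, stood at 2781.5, 2154 and 2103 in homozygous mutants 2, 6 and 9b, against 2261.5, 2395 and 1782.5 in heterozygotes 3, 4 and 8, and 2783, 2507.5 and 2615 in wild type 1, 5 and 7. Homozygous mutant 2 lay among the wild type arrays and the other two below them. Its log2 fold change over wild type was -0.18 ± 0.22 (SE; limma, adjusted p = 0.852), which was not called.

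**Figure D2:**
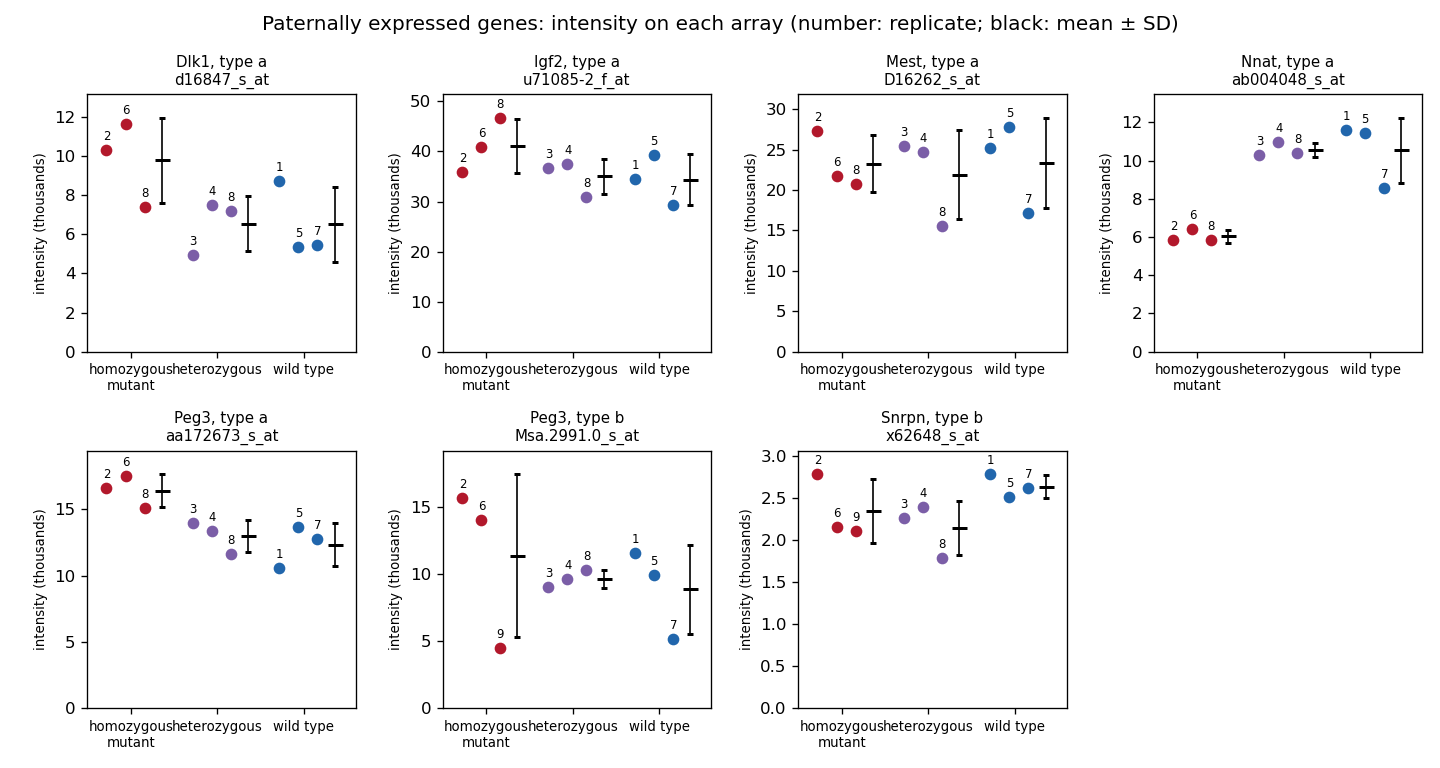
Intensity of the 7 probe sets of paternally expressed genes on each array, by genotype, with the replicate number over each point and the mean ± SD in black (n = 3). Nnat is low on all 3 homozygous mutant arrays, between 5832 and 6427, and type a Peg3 is high on all 3, between 15066.5 and 17516.5, while the type b Peg3 probe set spreads from 4451 to 15650.3 within homozygous mutants.

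Among the maternally expressed genes, Cdkn1c was lower in homozygous mutants on both array types and passed the test on type a. Its brighter probe set, on type b, had 4733, 3855 and 3423 in homozygous mutants 2, 6 and 9b, against 4148, 4914 and 7895 in heterozygotes 3, 4 and 8, and 11486, 7784 and 8280.3 in wild type 1, 5 and 7. All homozygous mutant arrays lay under all wild type arrays, and the heterozygotes spread over both ranges. The mean was 4004 ± 668 in homozygous mutants, 5652 ± 1979 in heterozygotes and 9184 ± 2010 in wild type (SD, n = 3 each). The log2 fold change over wild type was -1.19 ± 0.26 (SE), 2.28-fold lower, with an adjusted p of 0.0709 in limma, so it was not called.

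On type a, Cdkn1c had 4057, 2706 and 2859 in homozygous mutants 2, 6 and 8a, against 5521, 6100.2 and 5296 in heterozygotes 3, 4 and 8, and 7174, 6165 and 5731 in wild type 1, 5 and 7. Homozygous mutants lay below all other arrays, and the highest heterozygote exceeded the lowest wild type array. Cdkn1c fell by 1.005 ± 0.175 (SE) on the log2 scale relative to wild type, 2.01-fold (limma, adjusted p = 0.0217). The name of each Cdkn1c probe set ends in _f_at, as do the names of the Igf2 and H19 probe sets. Whether related transcripts add to the signal of these probe sets was not tested.

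The type a Cdkn1c call ended in 9 of 21 alternative settings, with adjusted p between 0.051 and 0.111 in limma, while the fold change stayed between -1.19 and -0.89 in all 21. Leaving out heterozygous 3, homozygous mutant 6, homozygous mutants 8a and 9b together, or any wild type replicate, each on both types, ended it, with adjusted p of 0.051, 0.0874, 0.0595 and, for wild type 1, 5 and 7, 0.0905, 0.088 and 0.0669. No filter on low signal, only the arrays of both genotypes compared, and no intensity trend ended it as well, with adjusted p of 0.106, 0.111 and 0.0615. The type b probe set became called in 1 of 21 settings, without heterozygous 8 (limma, adjusted p = 0.035).

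Igf2r, the receptor that clears Igf2, did not separate by genotype. It had 1636, 1665 and 725 in homozygous mutants 2, 6 and 8a, against 1362, 1489 and 1219.5 in heterozygotes 3, 4 and 8, and 1296, 1467 and 1531 in wild type 1, 5 and 7. Homozygous mutants 2 and 6 were the brightest of the 9 arrays and 8a, the array with the actin ratio of 2.50, was the dimmest. The log2 fold change over wild type was -0.19 ± 0.31 (SE; limma, adjusted p = 0.891) and changed sign to 0.21 without 8a.

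Grb10, the adaptor of insulin and IGF receptors, varied more within genotypes than nearly all tested probe sets of type b. Its brighter probe set had 6988, 9273 and 2598 in homozygous mutants 2, 6 and 9b, against 8422, 8572.5 and 3878 in heterozygotes 3, 4 and 8, and 5789, 7592 and 2882 in wild type 1, 5 and 7. In each genotype 1 array was far below the others: 9b, heterozygous 8 and wild type 7. The second probe set had 6182, 8032 and 1591 in homozygous mutants, against 6128.5, 5963 and 2432 in heterozygotes and 4655, 4857 and 1496.5 in wild type, with the same arrays lowest. The spread within genotypes was 0.791 and 1.01 on the log2 scale, at the 96.8th and 98.9th percentile of type b. Of the 3 arrays of each genotype, the lowest in Grb10 had the highest actin ratio, 2.28 for 9b, 1.20 for heterozygous 8 and 1.40 for wild type 7, whose part in these values was not tested. Across genotypes that order did not hold, since wild type 5, with a ratio of 1.24, had 7592 at the brighter probe set and heterozygous 8 had 3878. Over wild type the log2 fold changes of homozygous mutants were 0.14 ± 0.50 and 0.41 ± 0.63 (SE; limma, adjusted p = 0.947 and 0.882). Without 9b they were 0.68 and 1.12, and without wild type 7 they were -0.26 and -0.15.

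**Figure D3:**
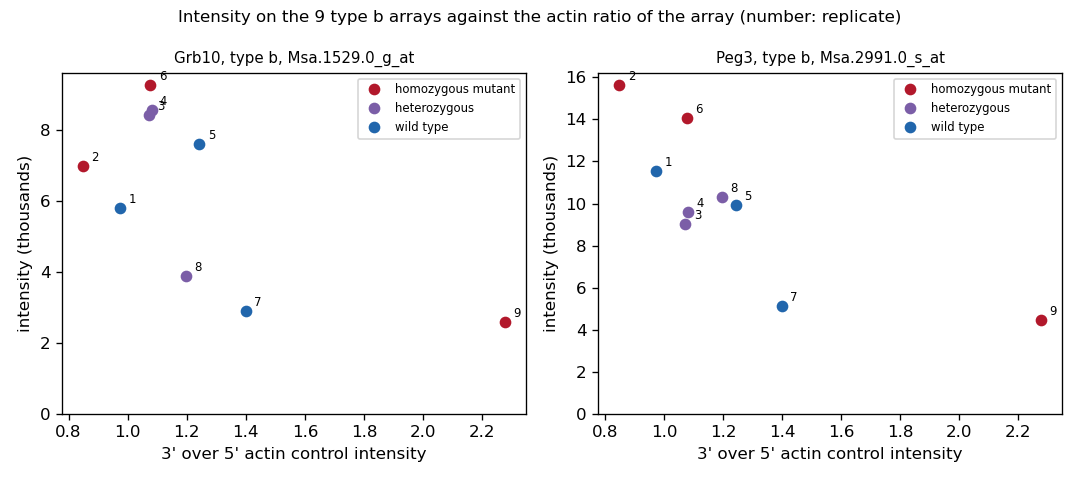
Intensity of the brighter Grb10 probe set and of the type b Peg3 probe set against the 3′ over 5′ actin ratio of each of the 9 type b arrays, coloured by genotype, with replicate numbers. Homozygous mutant 9 (ratio 2.28) and wild type 7 (ratio 1.40) are low in both panels, while heterozygous 8 (ratio 1.20) is low in Grb10 at 3878 but the brightest heterozygous array in Peg3 at 10313. Wild type 5 (ratio 1.24) is at 7592 in Grb10.

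H19, the noncoding RNA next to Igf2, did not separate by genotype either. Its brighter probe set had 43417, 68293 and 85383 in homozygous mutants 2, 6 and 9b, against 59702, 66875 and 49088 in heterozygotes 3, 4 and 8, and 47447, 65845 and 52492 in wild type 1, 5 and 7. The second probe set had 36654, 45452.5 and 83038 in homozygous mutants, against 46790.2, 54303 and 49896 in heterozygotes and 44382, 43802 and 47306 in wild type. On both, 9b (actin ratio 2.28) was the brightest array and homozygous mutant 2 the dimmest, so the homozygous mutants spanned the other genotypes. The part of RNA quality in these values was not tested. The log2 fold changes over wild type were 0.21 ± 0.29 and 0.20 ± 0.29 (SE; limma, adjusted p = 0.869 and 0.88), and without 9b they were -0.01 and -0.14.

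**Figure D4:**
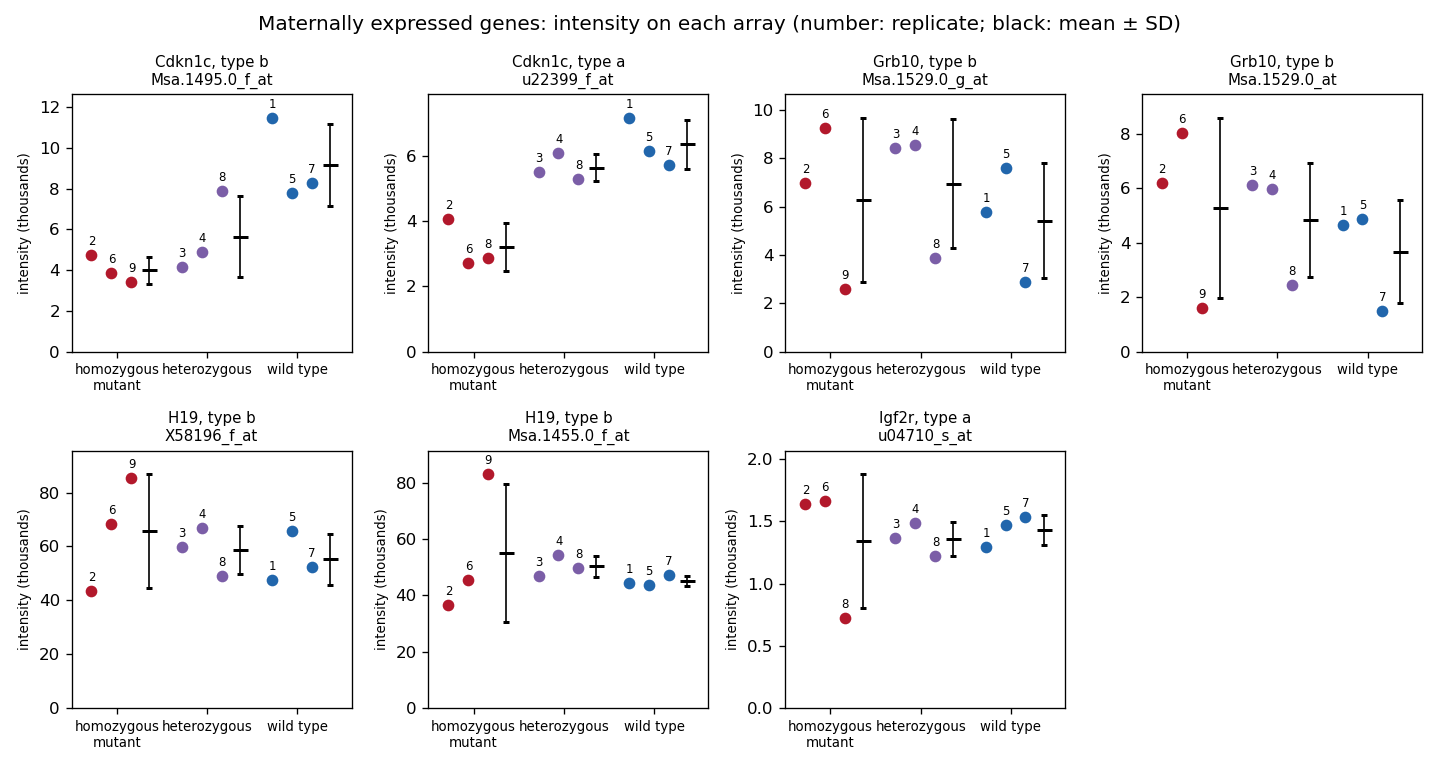
Intensity of the 7 probe sets of maternally expressed genes on each array, by genotype, with the replicate number over each point and the mean ± SD in black (n = 3). Both Cdkn1c probe sets are lower on all homozygous mutant arrays than on any wild type array, Grb10 has 1 low array in each genotype, and homozygous mutant 9 is the highest in H19.

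Heterozygotes were compared with wild type to ask whether a single mutant copy goes with a change. Of the 14 member probe sets 0 were called, and the background was 0% of 6935 by limma, with 118 (1.7%) at an unadjusted p under 0.05, 1.27% higher and 0.433% lower. One member probe set was among those 118, Cdkn1c on type b, at -0.73 ± 0.26 (SE) on the log2 scale (limma, unadjusted p = 0.0154, adjusted p = 1). Its type a probe set had -0.17 ± 0.17 (SE), and the difference between the types was not tested. Nnat had a log2 fold change of 0.02 ± 0.15 (SE), with a 95% interval of -0.30 to 0.34. Snrpn was the 1 member whose groups did not overlap, all heterozygous arrays being under all wild type arrays, at -0.31 ± 0.22 (SE) on the log2 scale (limma, unadjusted p = 0.195). The groups did not overlap at 6.37% of tested probe sets, 3.73% higher and 2.64% lower. The other member probe sets had fold changes between -0.10 and 0.46, and the median over all 14 was 0.03, as over all tested probe sets.

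Homozygous mutants were also set against heterozygotes, a comparison that shares the homozygous mutant arrays with the first. Of the 14 member probe sets 0 rose, 2 fell and 12 were not called, with a background of 1.15% called, 0.735% higher and 0.418% lower. Nnat fell by 0.81 ± 0.15 (SE) on the log2 scale (limma, adjusted p = 0.0244), and type a Cdkn1c fell by 0.84 ± 0.17 (SE; limma, adjusted p = 0.0486). The type b Cdkn1c probe set had -0.46 ± 0.26 (SE; limma, adjusted p = 0.418). The call ended for Nnat in 6 of 21 settings (limma, adjusted p from 0.0631 to 0.144) and for Cdkn1c in 15 of 21 (limma, adjusted p from 0.0508 to 0.21). For Nnat the replicates whose removal ended it were heterozygous 3, 4 and 8 and homozygous mutant 2, with adjusted p from 0.0692 to 0.144. For Cdkn1c they were every replicate except homozygous mutant 2, with 8a and 9b removed together, with adjusted p from 0.0508 (wild type 1) to 0.21 (heterozygous 4). Type a Peg3 and Dlk1 had log2 fold changes of 0.34 ± 0.15 and 0.58 ± 0.24 (SE; limma, unadjusted p = 0.0425 and 0.034, adjusted p = 0.298 and 0.272). At an unadjusted p under 0.05, 2 member probe sets were higher and 2 lower, where 7.21% and 8.51% of tested probe sets were. The groups did not overlap at 1 member probe set in the higher direction, type a Peg3, and at 2 in the lower, where 9.99% and 12.6% of tested probe sets were of those kinds.

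Other genes of the same pathways were described by lists, at each gene's brightest probe set. Over all 3909 named genes tested, 0.716% were called in homozygous mutants relative to wild type and the median log2 fold change was -0.04. Of 23 other genes listed as paternally expressed 6 were on the arrays and 2 were tested, Ndn (-0.21) and Ins2 (0.07), neither called. Whether genes of this list and the next are imprinted in this tissue was not measured. Of 30 other genes listed as maternally expressed 12 were on the arrays and 6 tested, with 0 called. Their fold changes were 2 above 0 and 4 below, with a median of -0.05. The lowest belonged to Th (-0.23) and Osbpl5 (-0.20). Cd81, a tetraspanin, had the highest of those values at 0.41 (limma, adjusted p = 0.408), with 23358 ± 2498 in homozygous mutants, 16684 ± 1373 in heterozygotes and 17614 ± 1951 in wild type (SD, n = 3 each). Of 17 genes that set or keep imprints, 13 were on the arrays and 11 tested, with 0 called and a median of -0.07. The smallest unadjusted p-values of that list belonged to Mbd3, a methyl-CpG-binding domain protein, at -0.41, Ezh2, a histone methyltransferase, at -0.33, Trim28, a corepressor that protects imprints, at -0.25, and Ctcf, which binds the control region between H19 and Igf2, at -0.34. Their adjusted p ran from 0.459 (Mbd3) to 0.797 (Ctcf) in limma. The other tested probe sets of Mbd3 and Trim28 had -0.21 and -0.08.

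In the IGF and insulin pathway, which Igf2, Igf2r and Grb10 feed into, 16 of 28 listed genes were on the arrays, 11 were tested and 1 was called. Igfbp2, a secreted protein that binds IGFs, rose by 0.96 ± 0.16 (SE) on the log2 scale in homozygous mutants (limma, adjusted p = 0.0189). It averaged 5785 ± 261 in homozygous mutants, 3015 ± 460 in heterozygotes and 2992 ± 366 in wild type (SD, n = 3 each). Foxo3, a transcription factor held in check by the pathway, had 1.19 ± 0.36, and Akt1, its central kinase, had -0.57 ± 0.19 (SE; limma, adjusted p = 0.212 and 0.28). Shc1, an adaptor of the receptors, had 0.44 ± 0.21 (SE; limma, adjusted p = 0.473). The median of the list was 0.00.

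Of 19 genes of the G1 phase, where Cdkn1c acts, 15 were on the arrays and 12 tested, with 0 called, 2 above 0 and 10 below, and a median of -0.27 against -0.04 over all genes. Cdkn1b (p27Kip1), a relative of Cdkn1c, averaged 2239 ± 178 in homozygous mutants, 1243 ± 55 in heterozygotes and 1400 ± 138 in wild type (SD, n = 3 each). Its log2 fold change over wild type was 0.68 ± 0.20 (SE; limma, adjusted p = 0.188). Cdkn1a (p21), the third of that family, was under the floor on all 3 homozygous mutant arrays of type b and at 765 ± 132 in wild type (SD, n = 3), at least 1.45-fold lower in homozygous mutants (limma, adjusted p = 0.313). Its other tested probe set had -0.08. Ccne1, the cyclin of Cdk2, had -0.64 (limma, adjusted p = 0.428), and Ccnd3, a D-type cyclin, had -0.29 at its brightest probe set and 0.20 at its other tested one (limma, adjusted p = 0.513 and 0.795). Of 10 spliceosome proteins related to the role of Snrpn, 6 were tested and 0 called, 2 above 0 and 4 below, with a median of -0.07. Snrpe and Snrpg, both of the Sm ring, had 0.29 and 0.27 (limma, adjusted p = 0.584 and 0.647). Snrnp70 had -0.34 at its brightest probe set and -0.39 at its other tested one (limma, adjusted p = 0.758 and 0.818).

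**Figure D5:**
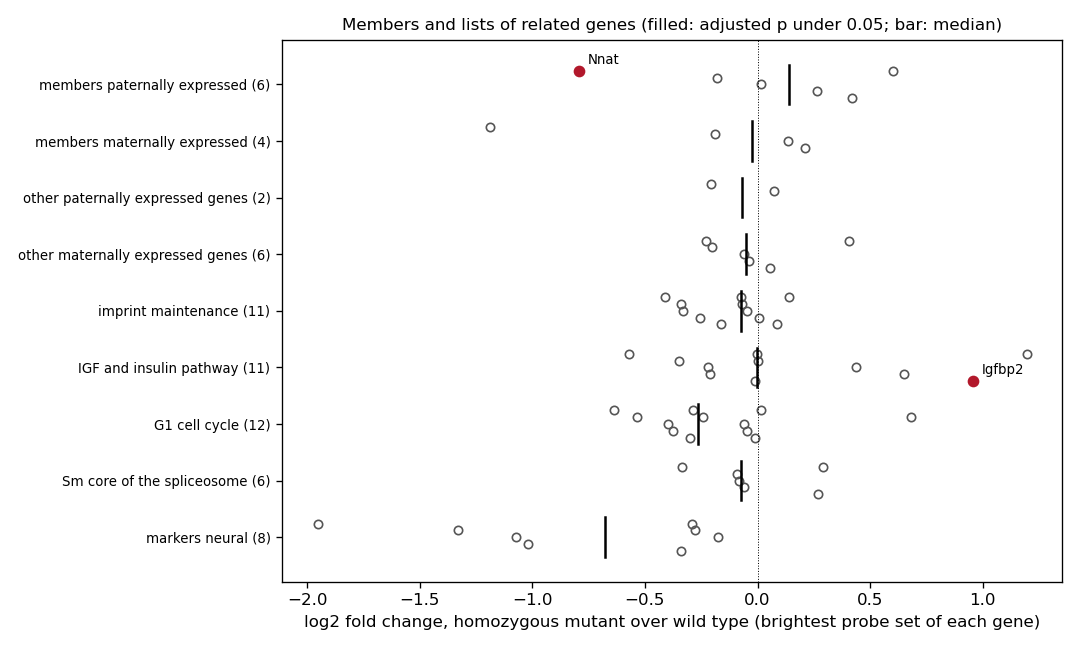
Log2 fold change, homozygous mutant over wild type, at the brightest probe set of each tested gene, in the member groups and related lists, with the number tested in brackets and the median as a bar. Filled points passed an adjusted p under 0.05: Nnat at -0.79 and Igfbp2 at 0.96. The called type a probe set of Cdkn1c is not drawn because its type b probe set is brighter.

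The genes whose log2 values followed a member most closely over the 9 arrays of its type were found by Pearson's r. It is given as a description, since both values of a pair come from the same RNA on the same scaled array. Nnat was followed by Pax1, a paired-box factor of the sclerotome, at 0.986 and by Nme1 at 0.969. Type b Cdkn1c was followed by Ckb, the brain creatine kinase, at 0.936 and by Klc1, a kinesin light chain, at 0.908. Dlk1 was followed by Tcf21, a factor of mesenchyme, at 0.922, and type a Peg3 by Fkbp3 at 0.938. Igf2 was followed by Ckap5 at 0.955 and Mest by Denn2b at 0.954. H19 was followed by ribosomal protein genes, Rps3 at 0.987 and Rpl37a at 0.979. Grb10 was followed by Papola, a poly(A) polymerase, at 0.974, Igf2r by Fam136a at 0.964, and Snrpn by Wdr1 at 0.796.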

How the data were processed

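RNA was measured on 9 arrays of each of 2 types, 3 per genotype. The deposited unit is intensity per probe set, scaled between arrays by the authors: trimmed means over shared probe sets agreed within 0.0491% (type a) and 0.774% (type b), and negative values show background subtraction. Which array software made the values is not given in the sources used here. The authors' scaling was kept, since it differed by under 1%.

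Control probe sets, 61 per type, were left out, which left 13057 probe sets (7542 with 1 symbol, 224 with several, 5291 with none). Values under the floor were raised to it and log2 was taken. Probe sets above the floor on at least 3 of 9 arrays entered limma (version 3.58.1, R 4.3.3; lmFit, eBayes with an intensity trend), with all genotypes of a type in 1 fit. The type b array of heterozygous 8 lacked values for 499 probe sets, none of them a member. The procedure was tested on simulated data with independent noise at each probe set. Those data held no effect shared by the probe sets of an array, so the test does not cover such effects. With 3 arrays per genotype and type, their number limits the precision.

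The members and the lists were chosen with earlier results of these data known. Every member probe set with 1 symbol is described, first at its brightest probe set, and of each list up to 4 genes with the smallest unadjusted p in homozygous mutants relative to wild type are named, with every called one. The 2 genes most like each member were found by Pearson's r. Alternatives changed the floor, log scale, filter, normalization, samples in the fit, variance trend, adjustment, covariates (Afp and the actin ratio) and left out each replicate in turn on both types, with homozygous mutants 8a and 9b left out together.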

Additional observations from a re-analysis of the deposited data

How the results depend on the processing

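Over 21 settings and 42 fold changes, 778 of 882 values kept their direction and side of the threshold, 40 lost a call, 1 gained one and 63 changed sign, none of them called with the changed sign. Of the member probe sets, 2 were called in homozygous mutants relative to wild type, against 0 with no filter on low signal, with only the genotypes compared and with no intensity trend, and 0 to 3 with 1 replicate left out. Relative to heterozygotes 2 were called, against 1 with the floor lowered to 0.5 of its value, a pseudocount, median scaling, only the genotypes compared or the actin ratio as a covariate, 0 with no filter or no trend, and 0 to 1 with 1 replicate left out. Over all tested probe sets 48 were called in homozygous mutants relative to wild type, and 19 with no filter, 7 with only the genotypes compared, 74 with the actin ratio and 8 to 48 with 1 replicate left out; relative to heterozygotes these were 80, 45, 40, 92 and 15 to 72. In heterozygotes relative to wild type 0 were called, and 1 without heterozygous 8 or without wild type 7. No paired analysis was possible because the genotypes compared share at most 1 replicate number on an array type (8, for heterozygous and homozygous mutant on type a).

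Signs changed as follows, in homozygous mutants relative to wild type: under quantile normalization Mest (-0.14) and Igf2 (-0.075), with Afp as a covariate Mest (-0.003), and with the actin ratio Igf2r (0.074). In heterozygotes relative to wild type they changed under median scaling for Nnat (-0.007) and Dlk1 (-0.002), with the actin ratio for Nnat (-0.01) and Dlk1 (-0.055), and under quantile normalization for the brighter H19 probe set (-0.058). In homozygous mutants relative to heterozygotes they changed under quantile normalization for Mest (-0.12), Igf2 (-0.13), the second H19 probe set (-0.027) and the second Grb10 probe set (0.031). The actin ratio as a covariate changed them for Igf2r (0.30), the second H19 probe set (-0.10) and both Grb10 probe sets (0.005 for the brighter, 0.29 for the second), and Afp for type b Peg3 (-0.021). The cause was not tested.

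Leaving out 1 replicate in turn changed signs too. Relative to wild type, homozygous mutants then ranged from -0.20 to 0.15 in Mest, -0.39 to 0.21 in Igf2r, -0.15 to 1.12 in the second and -0.26 to 0.68 in the brighter Grb10 probe set, -0.11 to 0.82 in type b Peg3, and -0.14 to 0.45 in the second and -0.01 to 0.48 in the brighter H19 probe set. Heterozygotes ranged from -0.13 to 0.092 in Nnat, -0.10 to 0.25 in Dlk1, -0.017 to 0.22 in the brighter H19 probe set, -0.029 to 0.16 in type a and -0.15 to 0.43 in type b Peg3, -0.31 to 0.13 in Mest, -0.08 to 0.13 in Igf2, and -0.091 to 0.90 in the second and -0.019 to 0.76 in the brighter Grb10 probe set. Homozygous mutants relative to heterozygotes ranged from -0.12 to 0.24 in Mest, -0.31 to 0.29 in Igf2r, -0.30 to 0.29 in the second and -0.093 to 0.40 in the brighter H19 probe set, -0.51 to 0.66 in the second and -0.62 to 0.30 in the brighter Grb10 probe set, -0.28 to 0.62 in type b Peg3, and -0.001 to 0.21 in Snrpn.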
